A study of Mus musculus with 9 samples.

Results

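CC chemokines are small secreted proteins that guide leukocytes along concentration gradients by binding G protein-coupled receptors on the responding cell. The 10 CC chemokine genes described here, *Ccl2*, *Ccl3*, *Ccl4*, *Ccl5*, *Ccl6*, *Ccl7*, *Ccl9*, *Ccl12*, *Ccl17* and *Ccl22*, were taken by symbol from the 55471 genes of the counts, each symbol matching 1 gene. They were measured in dendritic cells (DCs) grown from the bone marrow of wild-type C57BL/6 mice with GM-CSF. The study's methods give female mice of 8 to 20 weeks. Of the 9 libraries, 3 came from unstimulated DCs, 3 from DCs activated with LPS at 100 ng/mL and 3 from DCs treated with IFN-β at 1000 U/mL, all harvested after 6 h, and each group holds libraries with the letters A, B and C. No source used here says whether the letters stand for separate animals or cultures, so p-values measure the spread between these libraries, which may be technical.

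DCs are sentinels that take up antigen and carry it to lymph nodes, and the chemokines they release bring other leukocytes to them. By what their products do, the 10 genes fall into 4 groups. *Ccl2*, *Ccl7* and *Ccl12* encode monocyte chemoattractants that signal through CCR2. *Ccl3*, *Ccl4* and *Ccl5* encode inflammatory chemokines that draw T cells and myeloid cells, of which CCL3 and CCL5 bind CCR1. *Ccl6* and *Ccl9* encode mouse ligands of CCR1 that are abundant in myeloid cells, and *Ccl17* and *Ccl22* encode the ligands of CCR4, a receptor of helper and regulatory T cells. LPS is a bacterial cell wall component that DCs sense through a Toll-like receptor. As a type I interferon, IFN-β is an antiviral messenger made early in infection.

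Between 33425803 and 43735199 counts were assigned to genes in each library, and levels are given as CPM, counts relative to the TMM-scaled library size, where TMM factors correct library size for composition. At this depth a count of 3 corresponds to 0.0674 to 0.106 CPM, a limit that covers counting error only. The stimulus genes of both agents responded. LPS raised all 5 listed LPS genes and all 5 listed interferon genes, while IFN-β raised the 5 interferon genes and 3 of the 5 LPS genes. Of the 8 DC markers, all were tested, among them *Itgax* at 1359 to 1673 CPM over the 9 libraries and the defining *Zbtb46* at 27.8 to 57.4 CPM. The lowest of these markers was *Flt3*, at 1.88 to 4.99 CPM. The 8 macrophage and monocyte markers were tested as well, with a summed level of 1889 to 2426 CPM in unstimulated DCs, 2798 to 3570 CPM under LPS and 2626 to 3068 CPM under IFN-β, so that the cultures held transcripts of both kinds. Single genes of this list went both ways. Under LPS 5 were called higher and 2 lower, and under IFN-β 3 higher and 1 lower. Of all tested genes, 32.8% were called higher and 35.4% lower under LPS, and 23.6% and 23.3% under IFN-β. *Cd14* went from 79.0, 71.6 and 76.9 CPM to 733, 704 and 662 CPM under LPS. *Csf1r* fell from 1198, 1026 and 1081 CPM to 589, 546 and 551 CPM. T cell, B cell, NK cell, mast cell and erythroid lists stayed at or below 0.531 CPM in sum, with *Cd8b1*, *Prf1* and *Hbb-bs* at 0 in every library. In whole cultures, fewer cells of a type and less RNA per cell cannot be told apart.

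All 10 genes passed the filter on low counts and entered the model fitted to 16260 genes. Under LPS, 9 of the 10 rose and *Ccl6* fell. Over all tested genes, 32.8% were called higher and 35.4% lower in this comparison. Under IFN-β, 8 of the 10 rose, where 23.6% of all tested genes were called higher and 23.3% lower. *Ccl6* and *Ccl17* were without a call there. With condition as the only term and TMM scaling, no member was called lower by edgeR, nor at an unadjusted p under 0.05, and none was called lower by DESeq2. With edgeR, *Ccl17* was called lower with a replicate block and *Ccl6* with scaling by library size only. The median log2 fold change of the 10 genes was 3.35 with LPS and 1.10 with IFN-β, beside medians of -0.04 and -0.02 over all tested genes. Both comparisons share the unstimulated libraries. Scaling by library size only, which ignores composition, moved the median of all genes to -0.62 under LPS and -0.32 under IFN-β, and the calls to 2777 higher and 9906 lower under LPS (from 5334 and 5750) and to 2146 higher and 7484 lower under IFN-β (from 3837 and 3794). Even so, 8 members were called higher under LPS and 8 under IFN-β with this scaling.

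The responses to the stimuli were also compared directly, by setting IFN-β-treated against LPS-activated DCs. Of the 10 genes, 8 were lower with IFN-β, *Ccl6* was higher and *Ccl12* had no call. Of all tested genes, 25.8% were called higher and 23.3% lower with IFN-β than with LPS, or 4194 and 3795 genes, which became 7024 and 1996 with scaling by library size only. The median log2 difference was -1.67 for the 10 genes and 0.02 for all tested genes. When the 3 libraries of letter B were left out together, an alternative chosen after seeing the data, the members called in this comparison numbered 4 in place of 9, and 8 to 9 when letter A or C was left out. Without letter B the calls under LPS numbered 8, where *Ccl6* and *Ccl17* lost theirs, and those under IFN-β 7, where *Ccl9* lost its call. Estimates stayed close in that fit while standard errors grew. The *Ccl2* difference between the stimuli was -1.27 (standard error 0.497), against -1.29 (0.327) with all libraries. For *Ccl17* it was -1.45 (0.492), against -1.52 (0.327). Shares of all tested genes called without a letter are not given here, so whether the lower counts are particular to the members was not tested.

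**Figure D1:**
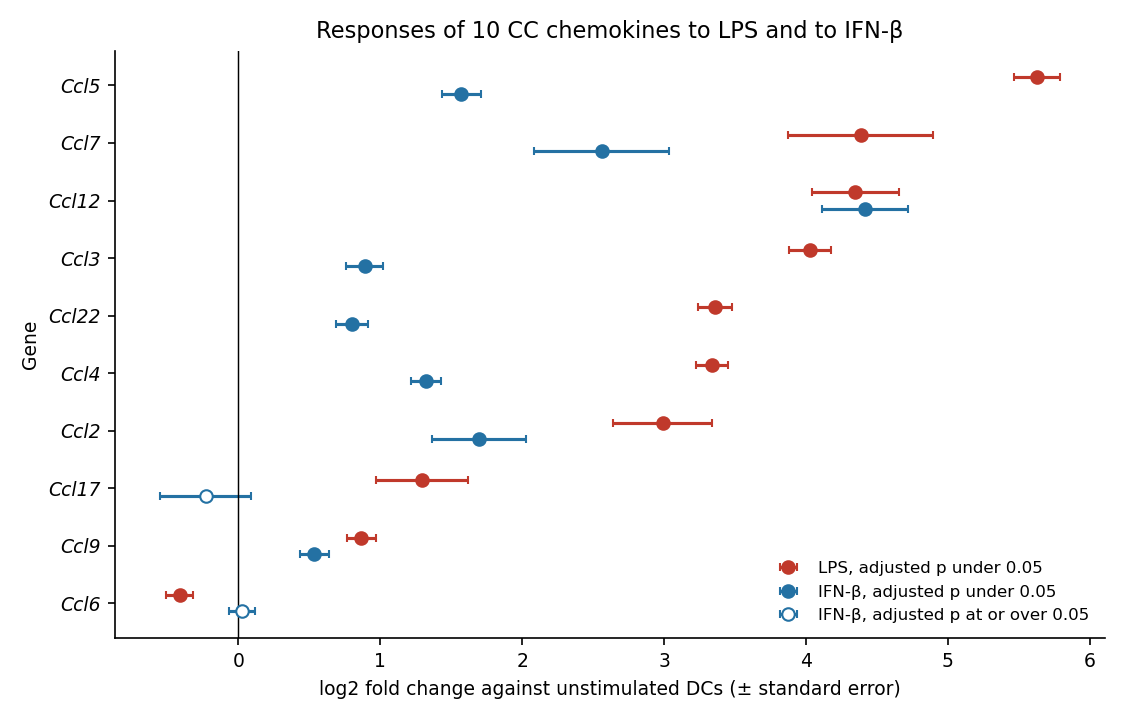
Log2 fold change of each gene against unstimulated DCs under LPS (red) and IFN-β (blue), with standard errors from the model of 9 libraries. Filled points passed an adjusted p of 0.05 in edgeR's quasi-likelihood test. *Ccl12* is the gene at which the points of both stimuli lie together, at 4.35 and 4.42, and *Ccl5* has the largest gap, 5.63 against 1.57.

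The 10 genes lie in 3 clusters of the GRCm38 genome. *Ccl22* (chr8:94745590-94751699, plus strand) and *Ccl17* (chr8:94810453-94812036, plus strand) span 66.4 kb of chromosome 8. *Ccl2* (chr11:82035571-82037453), *Ccl7* (chr11:82045712-82047525) and *Ccl12* (chr11:82101845-82103400) lie on the plus strand within 67.8 kb of chromosome 11. Further along chromosome 11, *Ccl5* (chr11:83525778-83530518), *Ccl9* (chr11:83572919-83578636), *Ccl6* (chr11:83587882-83593087) and *Ccl3* (chr11:83647844-83649355) lie on the minus strand and *Ccl4* (chr11:83662584-83664683) on the plus strand, within 139 kb. No exon base of a member was shared with another gene of the annotation. Stretches of 50 bases that also occur in other genes made up 0% of 9 members and 1.97% of *Ccl9*. Reads thus rarely had a second place to map among annotated genes, and sequence outside them is not covered by this count.

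Among the ligands of CCR2, the monocyte chemoattractant *Ccl2* stood at 207, 133 and 68.9 CPM in unstimulated libraries A, B and C. LPS brought it to 1361, 1035 and 855 CPM, and IFN-β to 536, 404 and 384 CPM. All 3 groups were apart from each other, and in each of them library A was the highest and library C the lowest. *Ccl2* was thus 7.95-fold higher under LPS (log2 fold change 2.99, standard error 0.35, edgeR adjusted p = 2.0e-05). The rise under IFN-β was 3.24-fold (log2 fold change 1.70, standard error 0.33, edgeR adjusted p = 0.00183), smaller than that under LPS by 1.29 on the log2 scale (edgeR adjusted p = 0.00739).

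*Ccl7*, whose product shares CCR2 with that of *Ccl2*, had the widest relative spread of the 10 genes in unstimulated DCs, with 22.5, 16.8 and 5.84 CPM in libraries A, B and C. It reached 442, 299 and 203 CPM under LPS and 130, 82.6 and 53.5 CPM under IFN-β. The order of the letters was again the same in each group, and no values of different groups overlapped. The mean was 20.9-fold higher under LPS (log2 fold change 4.39, standard error 0.51, edgeR adjusted p = 2.0e-05) and 5.90-fold higher under IFN-β (log2 fold change 2.56, standard error 0.48, edgeR adjusted p = 0.00135). IFN-β-treated DCs had 3.54-fold less *Ccl7* than LPS-activated DCs (edgeR adjusted p = 0.00668).

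*Ccl12*, which encodes a mouse monocyte chemoattractant, was the rarest of the 10 transcripts and the one with no called difference between the stimuli. Unstimulated libraries held 27, 24 and 20 counts of it, or 0.684, 0.539 and 0.451 CPM. Under LPS the level was 16.7, 8.74 and 8.82 CPM, and under IFN-β 13.4, 10.2 and 12.1 CPM. Every stimulated library lay above every unstimulated one, while the LPS and IFN-β libraries overlapped, with LPS library A the highest of all. The rise was 20.4-fold under LPS (log2 fold change 4.35, standard error 0.31, edgeR adjusted p = 4.2e-07) and 21.4-fold under IFN-β (log2 fold change 4.42, standard error 0.30, edgeR adjusted p = 2.6e-06). The difference between the stimuli was 0.07 on the log2 scale with a 95% interval from -0.38 to 0.52 (edgeR adjusted p = 0.825), which does not show that the responses were equal. Without LPS library A, *Ccl12* was called higher with IFN-β, by 0.43 (edgeR adjusted p = 0.0351). There was no call when all 3 libraries of letter A were left out (0.34, edgeR adjusted p = 0.063) or with a replicate block (0.10, edgeR adjusted p = 0.488). In the same comparison, *Ccl2* and *Ccl7*, which lie in the same 67.8 kb, were called lower with IFN-β.

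**Figure D2:**
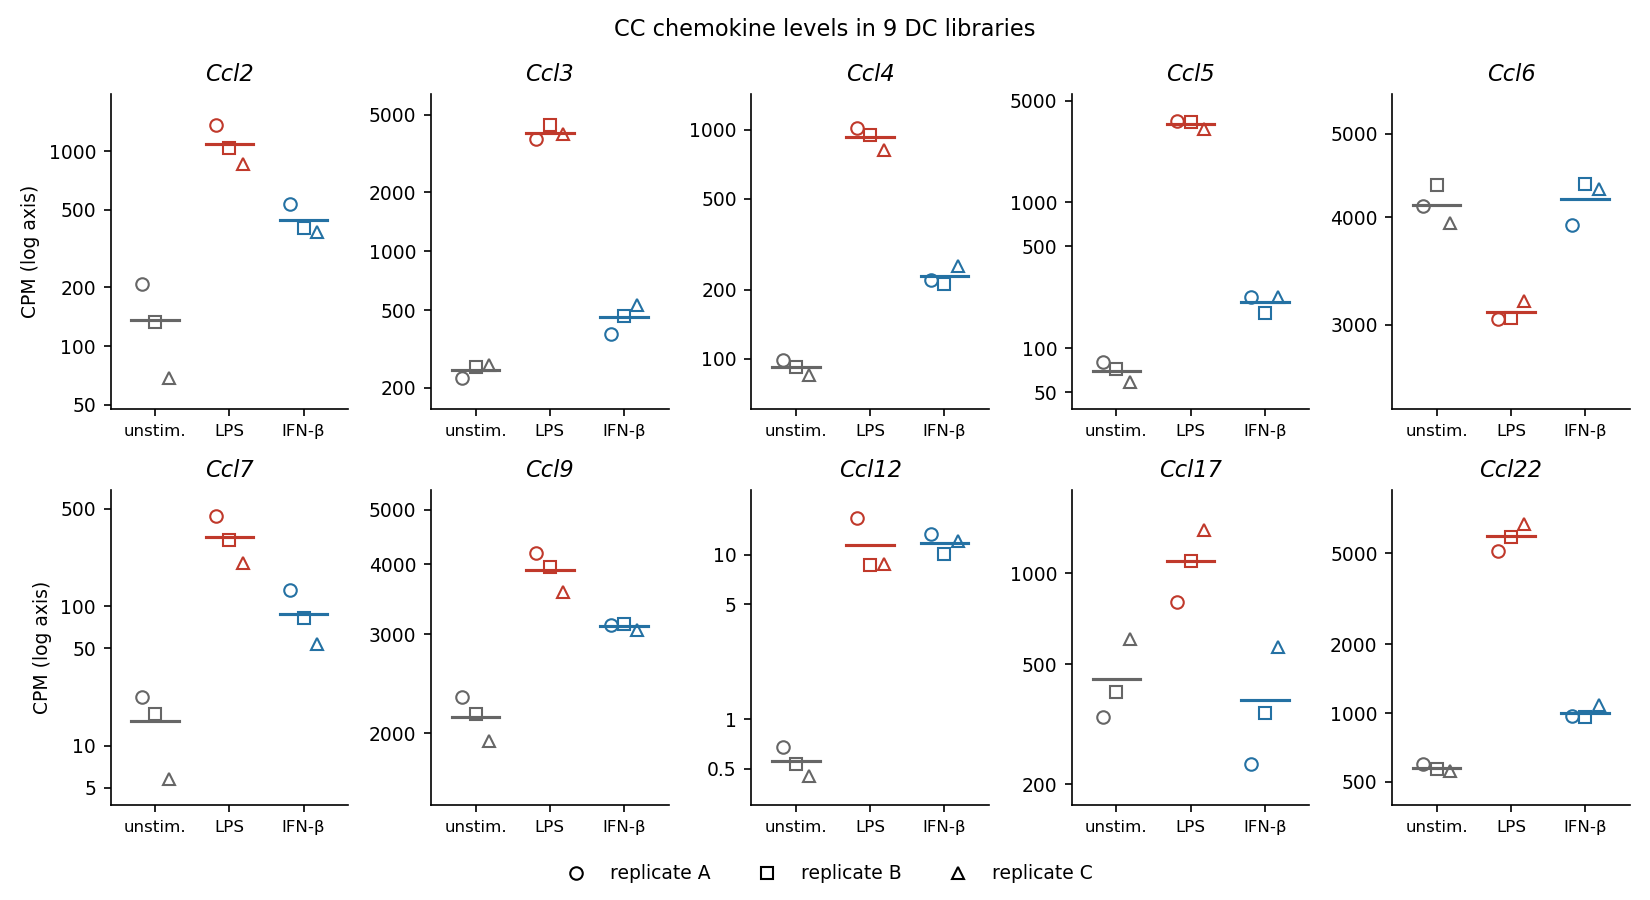
CPM of each gene in the 9 libraries on log axes, which differ between panels. Symbols mark the replicate letters and horizontal bars the group means. For *Ccl6* and *Ccl17* the IFN-β libraries overlap the unstimulated libraries, and for *Ccl12* they overlap those under LPS.

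Promoter sequence from RefSeq (GRCm38.p6) was at hand for 6 of the 10 genes, *Ccl3*, *Ccl6*, *Ccl9*, *Ccl12*, *Ccl17* and *Ccl22*. Altogether, 4 motifs were searched in the 250 bases before the start site, namely the NF-κB consensus, the ISRE core (GAAA, 2 bases of any kind, GAAA) and the AP-1 site TGANTCA on both strands, and the TATA box TATAAA on the strand of the gene. Shown are the last 150 bases before the start of *Ccl12*, which had no called difference between the stimuli, and of the adjacent *Ccl9* and *Ccl6*, which moved in opposite directions under LPS. Capitals mark motif matches, and all lines run from 5′ to 3′ on the strand of the gene, at chr11:82101695-82101844 (plus), chr11:83578637-83578786 (minus) and chr11:83593088-83593237 (minus).
Ccl12: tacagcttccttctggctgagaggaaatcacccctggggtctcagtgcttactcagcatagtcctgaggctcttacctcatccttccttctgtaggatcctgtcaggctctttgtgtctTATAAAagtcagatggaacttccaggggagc
Ccl9: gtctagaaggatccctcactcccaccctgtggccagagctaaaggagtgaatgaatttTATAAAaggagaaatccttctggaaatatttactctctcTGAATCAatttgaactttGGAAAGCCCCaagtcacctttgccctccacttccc
Ccl6: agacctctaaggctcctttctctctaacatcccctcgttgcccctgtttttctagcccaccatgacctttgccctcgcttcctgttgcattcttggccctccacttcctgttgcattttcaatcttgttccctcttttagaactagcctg
The upstream bases of *Ccl9* held a match to the TATA box from base 92 to 87 before the start, to the AP-1 site from 53 to 47, and to the NF-κB consensus, on the opposite strand, from 35 to 26. *Ccl12* held a TATA box match from base 31 to 26, and *Ccl6* held no match, as did *Ccl3*, *Ccl17* and *Ccl22*. Matches were thus found in 1 of 6 members for NF-κB, 1 of 6 for AP-1, 2 of 6 for the TATA box and 0 of 6 for the ISRE core. Of 27025 promoters searched over the same length, 7.01%, 6.87%, 8.12% and 3.04% held these motifs in the same order. A match is a description of letters only, and 250 bases leave more distant elements unseen.

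*Ccl3*, *Ccl4* and *Ccl5* rose under both stimuli, and more under LPS. *Ccl5*, which encodes RANTES, a chemoattractant of T cells, rose from 80.1, 71.6 and 58.6 CPM in unstimulated libraries to 3637, 3544 and 3206 CPM under LPS. Under IFN-β it stood at 225, 175 and 225 CPM. The groups were far apart, with a spread within each that was small beside the steps between them. This was the largest LPS response of the 10 genes, 49.4-fold (log2 fold change 5.63, standard error 0.16, edgeR adjusted p = 1.8e-09), against 2.97-fold under IFN-β (log2 fold change 1.57, standard error 0.14, edgeR adjusted p = 1.1e-05). With IFN-β the level was 16.6-fold lower than with LPS (edgeR adjusted p = 2.4e-08).

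*Ccl3*, which encodes MIP-1α, measured 226, 256 and 262 CPM in unstimulated libraries and 3731, 4421 and 3992 CPM under LPS. Under IFN-β the values were 378, 467 and 533 CPM, above all unstimulated libraries and far below all LPS libraries. *Ccl3* rose 16.3-fold under LPS (log2 fold change 4.03, standard error 0.15, edgeR adjusted p = 5.6e-09) and 1.85-fold under IFN-β (log2 fold change 0.89, standard error 0.13, edgeR adjusted p = 3.0e-04). *Ccl4*, its neighbour on the opposite strand, which encodes MIP-1β, went from 99.2, 91.8 and 85.3 CPM to 1018, 952 and 818 CPM under LPS and to 222, 213 and 255 CPM under IFN-β. Its groups did not overlap either. *Ccl4* rose 10.1-fold under LPS (log2 fold change 3.34, standard error 0.11, edgeR adjusted p = 4.7e-09) and 2.50-fold under IFN-β (log2 fold change 1.32, standard error 0.10, edgeR adjusted p = 6.1e-06). The LPS response was thus the larger for *Ccl3* and the IFN-β response the larger for *Ccl4*, a contrast taken up with the count ratios within libraries.

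The myeloid CCR1 ligands *Ccl6* and *Ccl9* were abundant before stimulation and had the smallest log2 changes under LPS. *Ccl6* was present at 4118, 4363 and 3936 CPM in unstimulated libraries and at 3049, 3060 and 3201 CPM under LPS. With IFN-β it was 3924, 4376 and 4318 CPM, within or next to the unstimulated values. It was the member that fell under LPS, by 0.42 on the log2 scale (standard error 0.09, edgeR adjusted p = 0.0022), with no overlap between the groups, and the log2 fold change was -0.997 with scaling by library size only. Under IFN-β the log2 fold change was 0.02 with a 95% interval from -0.16 to 0.21 (edgeR adjusted p = 0.86), and the sign depended on the scaling, since with library size only the value was -0.28 (edgeR adjusted p = 0.0188). An antisense transcript that spans the *Ccl6* locus, *E230016K23Rik*, shared no exon base with it and also fell under LPS, by 1.39 on the log2 scale (edgeR adjusted p = 1.21e-06), whereas its log2 fold change under IFN-β was 0.15 (edgeR adjusted p = 0.269). The strand setting of the counting is not given in the sources used here, and without it unspliced reads of one gene that fall on exons of the other cannot be told apart from that gene's own.

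*Ccl9*, the gene next to *Ccl6*, rose from 2319, 2166 and 1935 CPM to 4183, 3954 and 3573 CPM under LPS. IFN-β took it to 3116, 3129 and 3057 CPM, between the other groups and without overlap with them. The rise was 1.82-fold under LPS (log2 fold change 0.87, standard error 0.10, edgeR adjusted p = 2.1e-05) and 1.45-fold under IFN-β (log2 fold change 0.53, standard error 0.10, edgeR adjusted p = 0.00152). With scaling by library size only these log2 values became 0.28 and 0.23, both still called. The difference between the stimuli, -0.33 on the log2 scale (edgeR adjusted p = 0.0192), was not called without LPS library A (-0.29, edgeR adjusted p = 0.0572), without IFN-β library B (-0.34, edgeR adjusted p = 0.0518) or with scaling by library size only (-0.05, edgeR adjusted p = 0.595).

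The CCR4 ligands *Ccl17* and *Ccl22* differed from each other. *Ccl22* stood at 599, 568 and 560 CPM in unstimulated libraries, 5126, 5897 and 6697 CPM under LPS, and 970, 958 and 1081 CPM under IFN-β. The 3 groups were apart, and LPS libraries exceeded all others. *Ccl22* rose 10.3-fold under LPS (log2 fold change 3.36, standard error 0.12, edgeR adjusted p = 5.6e-09) and 1.74-fold under IFN-β (log2 fold change 0.80, standard error 0.11, edgeR adjusted p = 2.2e-04), a difference of -2.56 on the log2 scale (edgeR adjusted p = 6.9e-08).

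*Ccl17* was read at 333, 404 and 605 CPM in unstimulated libraries A, B and C, at 800, 1102 and 1386 CPM under LPS, and at 233, 344 and 568 CPM under IFN-β. Library C was the highest and library A the lowest in each group, the reverse of *Ccl2* and *Ccl7*. The rise under LPS was 2.45-fold (log2 fold change 1.29, standard error 0.33, edgeR adjusted p = 0.00453), and was not called with scaling by library size only (0.71, edgeR adjusted p = 0.0672). Under IFN-β the log2 fold change was -0.23, with a 95% interval from -0.86 to 0.40 and overlapping groups (edgeR adjusted p = 0.588). Within the letters, IFN-β libraries lay below unstimulated ones in all 3 pairs, by -0.52, -0.23 and -0.09 on the log2 scale, and a fit with a replicate block gave -0.28 (standard error 0.09, edgeR adjusted p = 0.0168). This was the only call on a member that the block changed.

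**Figure D3:**
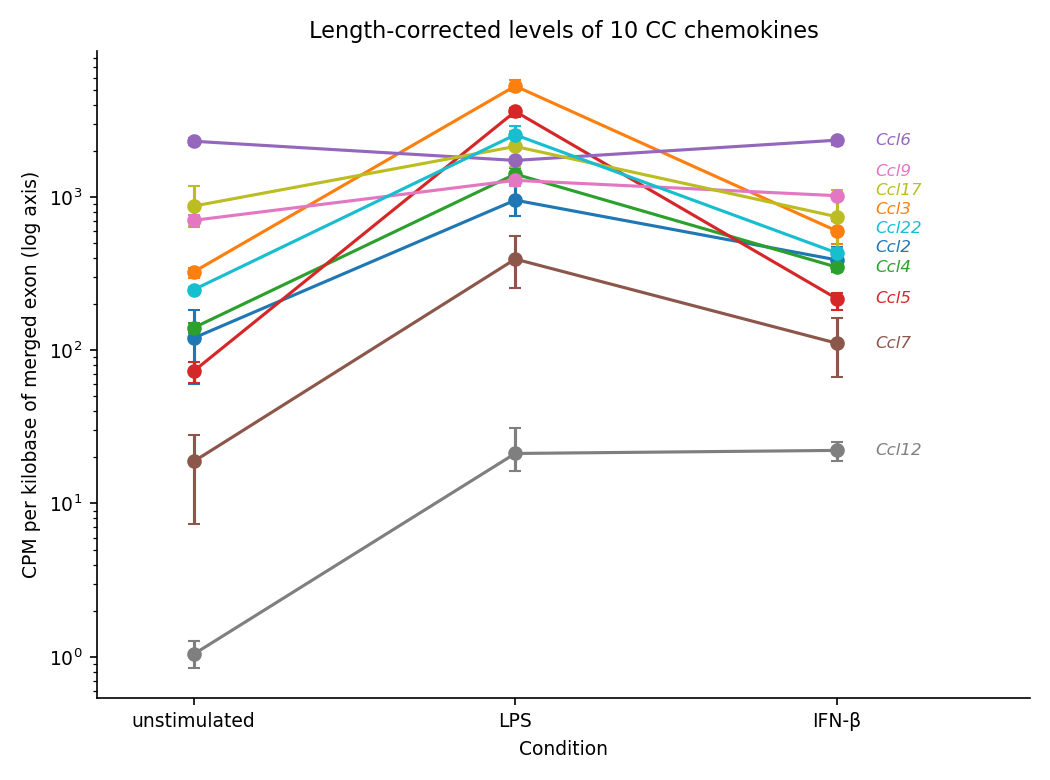
Mean level of each gene per kilobase of merged exons in each condition, on a log axis, with bars from the lowest to the highest of 3 libraries. *Ccl6* leads in unstimulated and IFN-β-treated DCs, and *Ccl3* and *Ccl5* lead under LPS, where the order of most genes changes.

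To compare levels between genes, CPM was divided by the length of the merged exons, and all values in this paragraph are CPM per kilobase. In unstimulated DCs, *Ccl6* led with 2306 ± 119 (SD, n = 3), followed by *Ccl17* with 871 ± 275 and *Ccl9* with 703 ± 63.6, whose ranges overlapped each other. Then came *Ccl3* (324), *Ccl22* (248), *Ccl4* (140), *Ccl2* (120), *Ccl5* (73.0), *Ccl7* (18.8) and *Ccl12* (1.04), where neighbours overlapped from *Ccl4* to *Ccl2* and from *Ccl2* to *Ccl5*. Under LPS the order opened with *Ccl3* at 5285 ± 454 (SD, n = 3), *Ccl5* at 3607 ± 236 and *Ccl22* at 2540 ± 338. *Ccl17* (2133), *Ccl6* (1729), *Ccl4* (1408), *Ccl9* (1282), *Ccl2* (952), *Ccl7* (393) and *Ccl12* (21.2) followed, with overlaps between *Ccl22* and *Ccl17*, *Ccl17* and *Ccl6*, *Ccl4* and *Ccl9*, and *Ccl9* and *Ccl2*. *Ccl6* led the IFN-β order as well, at 2343 ± 137 (SD, n = 3), before *Ccl9* at 1018 ± 12.6 and *Ccl17* at 742 ± 332. It went on with *Ccl3* (599), *Ccl22* (431), *Ccl2* (388), *Ccl4* (348), *Ccl5* (217), *Ccl7* (111) and *Ccl12* (22.2), and the ranges of *Ccl9* and *Ccl17*, *Ccl17* and *Ccl3*, *Ccl22* and *Ccl2*, and *Ccl2* and *Ccl4* overlapped. *Ccl5* moved from place 8 in unstimulated DCs to place 2 under LPS, and held place 8 with IFN-β. With the length of the longest transcript in place of merged exons, 8 of the 10 genes kept their place in all 3 conditions. *Ccl6* and *Ccl17* exchanged places under LPS, at 2155 and 2133. With that length *Ccl3* and *Ccl5* overlapped under LPS, at 5285 and 5183, so their gap depended on the length used.

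Together the 10 genes held 0.965% of all assigned counts in unstimulated DCs (0.945 to 1.0% over the libraries), 1.96% under LPS (1.83 to 2.03%) and 1.01% under IFN-β (0.952 to 1.04%). Within this sum, *Ccl6* went from 52.6% in unstimulated DCs to 13.0% under LPS and 41.5% under IFN-β, as shares of the members' counts. The share of *Ccl22* went from 7.32% to 24.7% and 9.90%, that of *Ccl3* from 3.16% to 17.0% and 4.52%, and that of *Ccl5* from 0.889% to 14.5% and 2.06%. *Ccl9* held 27.2%, 16.4% and 30.6% in the same order of groups. Longer transcripts give more counts, so these are shares of reads and not of molecules.

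Count ratios between genes of a cluster do not depend on how libraries are scaled. *Ccl3* had 2.27, 2.79 and 3.07 times the counts of *Ccl4* in unstimulated libraries A, B and C, 3.67, 4.64 and 4.88 times under LPS, and 1.70, 2.19 and 2.09 times under IFN-β. The ratio was thus higher with LPS in all 3 letters and lower with IFN-β, with log2 differences of 0.70 and -0.44. Paired by letter, the shift ran from 0.67 to 0.73 with LPS and from -0.55 to -0.35 with IFN-β. *Ccl6* over *Ccl9* was 1.78, 2.01 and 2.03 in unstimulated libraries, 0.729, 0.774 and 0.896 with LPS and 1.26, 1.40 and 1.41 with IFN-β. It was lower with both stimuli, with a log2 difference of -1.28 for LPS and -0.52 for IFN-β, and under LPS *Ccl9* counts exceeded those of *Ccl6* in all 3 libraries.

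*Ccl17* over *Ccl22* was 0.556, 0.711 and 1.08 in unstimulated libraries, 0.156, 0.187 and 0.207 with LPS and 0.240, 0.359 and 0.525 with IFN-β, with log2 differences of -2.05 and -1.08. The ratio of *Ccl2* to *Ccl7* was 9.20, 7.88 and 11.8 in unstimulated libraries, 3.08, 3.46 and 4.22 with LPS and 4.13, 4.89 and 7.19 with IFN-β, with log2 differences of -1.42 and -0.85. Both pairs thus shifted towards the second gene in every letter. *Ccl2* over *Ccl12* was 298, 241 and 149 in unstimulated libraries, 81.6, 118 and 96.8 with LPS and 39.9, 39.5 and 31.8 with IFN-β. Its log2 difference was -1.17 under LPS and -2.58 under IFN-β, so this is the pair in which IFN-β gave the larger shift. In all 10 comparisons with unstimulated DCs the groups did not overlap. How often ratios of other gene pairs separate in this way was not tested. Single genes often changed, with 32.8% of all tested genes called higher and 35.4% lower under LPS. Under IFN-β the shares were 23.6% and 23.3%. The two-sided exact permutation p was 0.1 for each, the smallest that 3 libraries against 3 can give, and 0.1 after adjustment over the 10 comparisons.

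**Figure D4:**
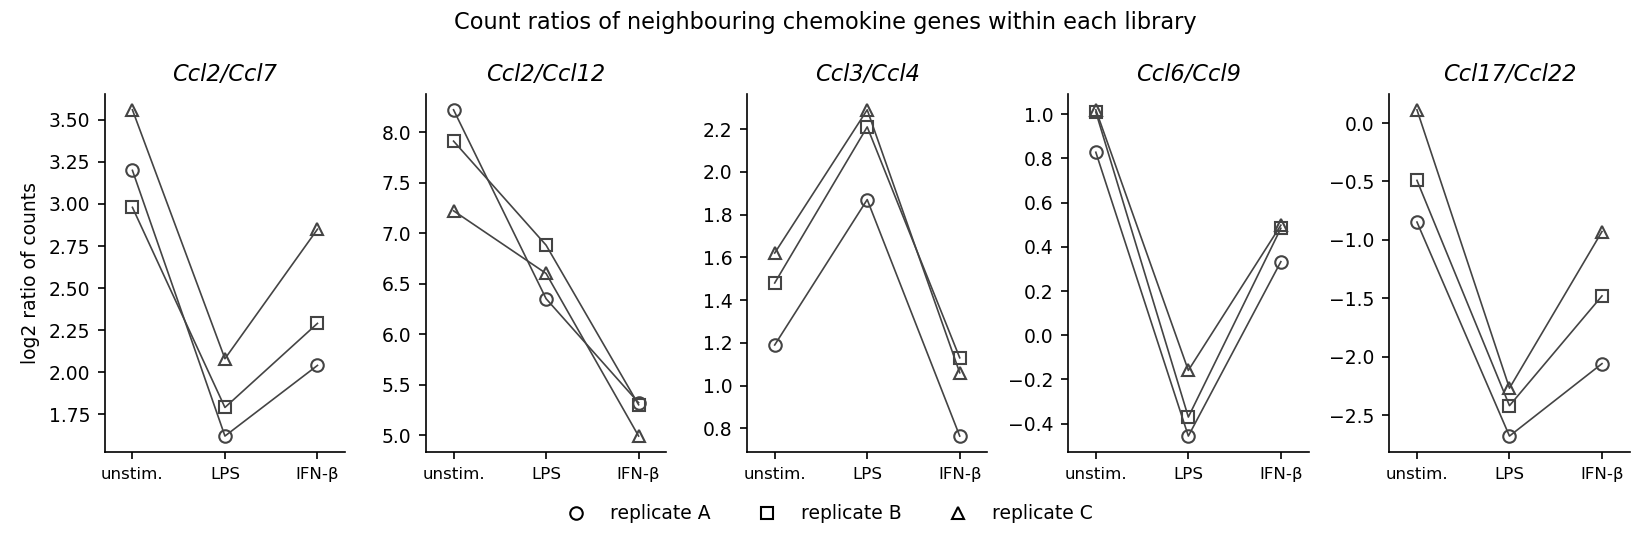
Log2 ratio of counts of neighbouring chemokine genes in each library, with lines joining libraries of the same letter. The axes differ between panels. *Ccl3*/*Ccl4* is higher with LPS and lower with IFN-β, with differences of 0.70 and -0.44, and *Ccl2*/*Ccl12* is lower with IFN-β than with LPS.

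Replicate letters carried part of the spread between libraries for some members. In the fit with the letters as a block, the term of the letters was called for *Ccl2*, *Ccl7*, *Ccl12* and *Ccl17*, that is 4 of the 10 genes, where 13.3% of all tested genes were called. This test was added after the values had been seen. *Ccl7* was 1.37 lower in letter C than in letter A on the log2 scale (edgeR adjusted p = 3.73e-05) and *Ccl2* 0.89 lower (edgeR adjusted p = 0.00393). *Ccl17* went the other way and was 0.98 higher in letter C (edgeR adjusted p = 2.76e-05). *Ccl12* was 0.64 lower in letter B and 0.53 lower in letter C than in letter A (edgeR adjusted p = 0.0154). For the remaining 6 genes the adjusted p ran from 0.0642 (*Ccl3*) to 0.723 (*Ccl6*).

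Markers of other cells moved with the letters as well. The macrophage marker *Adgre1* measured 212, 140 and 121 CPM in unstimulated libraries A, B and C, 453, 349 and 305 CPM under LPS and 212, 145 and 137 CPM under IFN-β. Of the 8 macrophage and monocyte markers, 5 had a called letter term (*Adgre1*, *Fcgr1*, *C1qa*, *C1qb* and *Ly6c2*), each lower in letters B and C than in A in that fit. The summed level of this list was 2426, 1908 and 1889 CPM in the unstimulated A, B and C libraries. The neutrophil genes *S100a9*, *Ngp* and *Ltf* were also highest in letter A in each group, and the summed level of the 8 neutrophil markers was 23.1, 10.1 and 11.6 CPM in unstimulated libraries. Of the 8 DC markers, 4 had a called letter term, in different directions. *Flt3* and *H2-Ab1* were lower in letters B and C than in A, *Zbtb46* was higher in both (27.8, 32.9 and 36.8 CPM in unstimulated libraries), and *Ciita* was higher in letter C. In sum, the DC markers reached 5276, 4415 and 4568 CPM in the unstimulated libraries. The eosinophil marker *Epx* was highest in B (1.11, 3.08 and 0.293 CPM). The interferon gene *Ifit1* followed the order of *Ccl2* and *Ccl7* in unstimulated DCs, at 40.7, 25.9 and 11.2 CPM. The part of these markers in the letter differences was not tested. Without all libraries of letter A, 10 members were called under LPS and 8 under IFN-β, as with them. Between the stimuli, *Ccl9* lost its call in that fit (log2 difference -0.29, edgeR adjusted p = 0.0693). The share of all tested genes called without letter A is not given here.

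**Figure D5:**
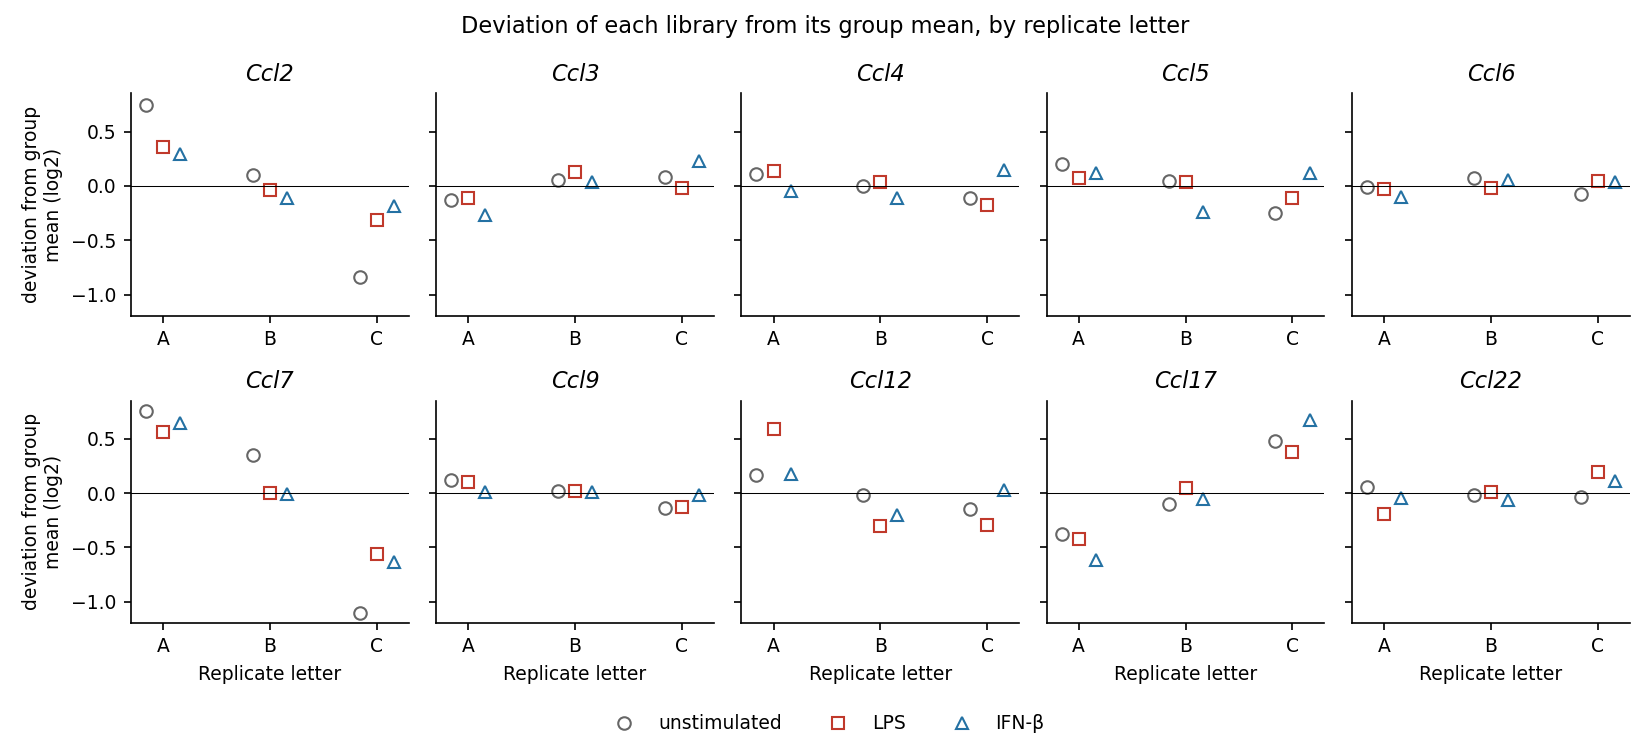
Deviation of each library from the mean of its group on the log2(CPM + 0.5) scale, by replicate letter and group. *Ccl2* and *Ccl7* are above their group means in A and below them in C, *Ccl17* is the reverse, and *Ccl6* and *Ccl9* stay within 0.14 of their means.

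Most other CC chemokines had few counts or none in these cultures. Of 13 further CC chemokine genes found in the counts, 6 had no count in any library and 8 never exceeded 3 counts, and 4 were tested. *Ccl8*, another CCR2 ligand, measured 0.0507, 0.0674 and 0 CPM in unstimulated libraries, which is 0 to 3 counts. It was 0.637, 0.233 and 0.184 CPM with LPS (edgeR adjusted p = 0.0111) and 0.679, 0.159 and 0.387 CPM with IFN-β (edgeR adjusted p = 0.00813), higher in both cases though still below 1 CPM. *Ccl24*, an eosinophil attractant, went from 2.08, 2.16 and 3.45 CPM to 4.32, 5.42 and 4.73 CPM under LPS (log2 fold change 0.91, edgeR adjusted p = 0.00968). *Ccl25* stood at 13.9, 14.8 and 14.7 CPM in unstimulated libraries, 16.5, 17.7 and 19.6 CPM under LPS and 14.9 to 16.2 CPM under IFN-β. It rose by 0.31 on the log2 scale under LPS (edgeR adjusted p = 0.0062), and *Ccl27a* had no call.

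Genes of receptors that members bind moved in different directions. *Ccr2*, the receptor of *Ccl2*, *Ccl7* and *Ccl12* products, fell from 375, 359 and 283 CPM to 118, 94.1 and 67.3 CPM under LPS (log2 fold change -1.87, standard error 0.20, edgeR adjusted p = 1.1e-05). IFN-β-treated libraries held 377, 348 and 267 CPM of it, a log2 difference of -0.03 (edgeR adjusted p = 0.904). *Ccr4*, which binds the *Ccl17* and *Ccl22* products, stood at 0.633, 0.449 and 0.248 CPM and reached 21.5, 20.7 and 29.1 CPM under LPS (log2 fold change 5.75, standard error 0.29, edgeR adjusted p = 4.1e-08), against 0.586, 0.212 and 0.497 CPM under IFN-β. *Ccr1* was called under IFN-β, at 0.47 on the log2 scale (edgeR adjusted p = 0.00665). *Ccr7*, which guides DCs to lymph nodes, had log2 rises of 1.51 (LPS) and 0.49 (IFN-β), and *Ccrl2*, a receptor without G protein signalling, of 4.77 and 2.98. Of the 15 receptors listed, 9 were tested, of which LPS raised 4 and lowered 1, and IFN-β raised 4. Over all tested genes, 32.8% were called higher and 35.4% lower under LPS, and 23.6% and 23.3% under IFN-β, which also holds as the background of the signalling, protease and decay genes.

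All 14 listed genes of chemokine receptor signalling were tested, and LPS changed each of them, 6 up and 8 down. IFN-β raised 8 and lowered 4. Their median log2 fold changes were -0.22 with LPS and 0.24 with IFN-β, beside -0.04 and -0.02 over all tested genes. The arrestin *Arrb1*, which ends receptor signalling, fell by 3.02 on the log2 scale under LPS, and *Rgs1*, a regulator of G protein signalling, rose by 2.54. *Rgs2* changed in opposite directions, by -1.55 on the log2 scale with LPS (edgeR adjusted p = 2.2e-04) and 0.91 under IFN-β (edgeR adjusted p = 0.00965). Among proteases that trim chemokines, 5 of 6 were tested and 3 rose under each stimulus. *Mmp2* had the largest log2 change with LPS, 1.94, and *Mmp14* rose by 1.70 and 0.97. Of 7 genes that act on the decay of inflammatory mRNA, LPS raised 4 and lowered 3, with *Zc3h12a* (2.55) and *Zfp36* (2.08) rising most, and IFN-β raised 2 and lowered 2, near the shares over all tested genes.

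For each member, the non-member gene with the most similar profile was found from the root mean square difference of log2(CPM + 0.5) over the 9 libraries, after each gene was centred on its unstimulated mean. *Tnf*, which encodes tumour necrosis factor, was nearest to *Ccl3* at 0.17, followed by *Gm16685* at 0.18. *Slc7a2* (0.12) and *Ptges* (0.18) were nearest to *Ccl4*, *B230303A05Rik* (0.36) and *Adgb* (0.37) to *Ccl5*, and *Procr* (0.17) and *Mab21l3* (0.18) to *Ccl22*. *Ccl12* was closest to *Fgl2* (0.25) and *Igtp* (0.29), an interferon-induced GTPase gene. Its unstimulated level of 0.451 to 0.684 CPM is near the 0.5 CPM added, which shrinks its log2 changes on this scale. By letter these were 3.15 to 3.86 with LPS and 3.37 to 3.72 with IFN-β, against 4.35 and 4.42 in the model. The list went on with *Arhgef37* (0.23) and *Ms4a4a* (0.24) for *Ccl2*, *Slc28a2* (0.31) and *Fabp3* (0.42) for *Ccl7*, and *Gm37354* (0.24) and *Fah* (0.25) for *Ccl17*. *Ccl6* lay nearest to *Decr1* (0.05) and *Zfp202* (0.06) and *Ccl9* to *Ccdc6* (0.06) and *Letm2* (0.06), where distances are small because these genes moved little. With a pseudocount of 0.1 CPM, 10 of the 20 nearest genes stayed the same.

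Inside the clusters, 6 other annotated genes lie between the outermost members, and 4 of them were tested. *Cx3cl1*, the fractalkine gene between *Ccl22* and *Ccl17*, had a log2 fold change of 0.60 under LPS (edgeR adjusted p = 0.0191) and 0.46 under IFN-β (edgeR adjusted p = 0.0794). In the same interval the pseudogene *Gnb1-ps3*, with 5 to 100 counts per library, rose by 4.36 with LPS and by 1.55 with IFN-β on the log2 scale. *Rpl9-ps1*, with 5 to 49 counts, rose by 2.03 under LPS (edgeR adjusted p = 0.00134). *Ccl11*, which lies between *Ccl7* and *Ccl12* and encodes eotaxin, had 0 counts in every library, and *Gm17268* had at most 6.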

How the data were processed

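Bone marrow-derived DCs were sequenced as rRNA-depleted total RNA in 9 libraries, 3 per condition. The authors trimmed reads (Trim Galore 0.6.0 in the submitters' processing notes), mapped them to mm10 with STAR (2.7.8a in those notes, another version in the study's methods) and deposited raw counts per gene of GENCODE, with no normalization and no filter. The strand setting is not given in the sources used here.

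The counts were tested with edgeR 4.0.16 in R 4.3.3 (TMM factors, filterByExpr, quasi-likelihood F-tests, Benjamini-Hochberg adjustment over 16260 genes, threshold 0.05), with 1 term per condition over all 9 libraries, as the study's methods do. The fit was also run on simulated counts in which libraries varied independently and few genes changed. That run does not bear on paired letters or on changes in many genes. A standard error is the absolute log2 fold change divided by the square root of F. Coordinates are from GENCODE M21 on GRCm38, since the release used for counting was not at hand. The members and gene lists were chosen with earlier results of these data known. Besides the members, the named genes are receptors, tested CC chemokines, up to 2 largest and 2 smallest changes of the other lists, the 2 most similar genes of each member, genes within the clusters, and cell type markers, some of which are not reported here.

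Libraries with the same letter deviated together from their group means: all 9 same-letter pairs correlated at 0.134 to 0.546 across genes, against -0.48 to 0.0622 for the 18 other pairs. The letters therefore pair the samples, as a hint from the data and not from a label, and a fit with a replicate block was run as an alternative. Other alternatives were DESeq2 1.42.0, other scalings and filters, a fit of the 2 compared groups alone, a log2 threshold of 1, and leaving out each library in turn. No 2 libraries agreed within sampling noise.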

Additional observations from a re-analysis of the deposited data

How the results depend on the processing

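Of 480 log2 fold changes of members under the alternatives, 465 kept their direction and their side of the threshold. With the replicate block, the *Ccl17* response to IFN-β was called at -0.28, and the block changed no other call on a member. It did give smaller standard errors for genes that differed between letters. Under LPS the log2 fold change of *Ccl7* was 4.47 with a standard error of 0.142, against 0.511 in the main fit. For *Ccl2* it was 3.075 with 0.162, against 0.348, and for *Ccl17* 1.305 with 0.0899, against 0.325. Scaling by library size only gave *Ccl6* a log2 fold change of -0.28 under IFN-β and upper-quartile factors gave -0.0534, against 0.02, and leaving out single libraries gave -0.0135 to 0.0645. The *Ccl17* response to IFN-β ran from -0.63 to 0.0474 and the *Ccl12* difference between the stimuli from -0.10 to 0.43 when single libraries were left out. The reversals left values near 0 and had no call, apart from *Ccl6* with library size only. That scaling also lowered the IFN-β responses of *Ccl3* to 0.58 and *Ccl22* to 0.49 and raised the *Ccl6* difference between the stimuli to 0.71. A threshold of 1 on the absolute log2 fold change left 5429 genes changed by LPS, 2052 by IFN-β and 2834 between the stimuli, and 5 members for IFN-β, by its own construction. Leaving out all libraries of 1 letter gave 4 to 9 members for the difference between the stimuli, and leaving out single libraries 8 to 9. The 4 came without letter B, where standard errors grew and log2 differences stayed close to those with all libraries. With a pseudocount of 0.1 CPM, 10 of 20 similar genes were retained. Depth limits *Ccl12* and *Ccl8*, with counts of at most 27 and 3 in unstimulated libraries, more than the other genes.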
